A study of Mus musculus with 6 samples.

Results

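The E2F transcription factors and the retinoblastoma pocket proteins were examined in TUBO cells, an epithelial line established from the mammary tumour of 1 BALB-neuT female, a mouse strain that carries an activated rat Neu transgene. The genes were chosen by symbol: E2f1, E2f2, E2f3, E2f4, E2f5, E2f6, E2f8, Rb1, Rbl1 and Rbl2. Of these 10 genes, 9 carried a probe in the platform annotation, and E2f8 was not analysed here. They held 16 of the 25697 probes on the array and 9 of the 16561 named genes. Total RNA was hybridised to 6 single-colour Illumina bead arrays, 3 titled TMA and 3 titled TDA, all of them from adherent cultures without a further treatment. By title and growth protocol, TMA cells were kept in mammosphere medium, a serum-free DMEM-F12 that held bFGF and EGF at 20 ng/ml each, albumin from bovine serum (BSA) at 0.4% and insulin at 5 μg/ml, and TDA cells were kept in DMEM to which 20% fetal calf serum was added. The samples' source names state the reverse, so the groups are called TMA and TDA here, and which medium goes with which direction is not settled. The study asked which transcripts differ between the media. No label says whether the 3 samples of a group were separate cultures of this single line, so the p-values rest on a spread between samples that may be technical only. Wherever 3 values are given for a group, they follow the replicate numbers 1, 2 and 3.

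E2F factors bind as dimers with DP proteins to promoters of genes needed for DNA synthesis. E2f1, E2f2 and E2f3 are activators, E2f4 and E2f5 act mainly as repressors together with pocket proteins, and E2f6 and E2f8 repress without them. The pocket proteins, encoded by Rb1, Rbl1 (p107) and Rbl2 (p130), hold E2F factors inactive until cyclin-dependent kinases phosphorylate them late in G1 phase. E2f1, E2f2 and Rbl1 are themselves known as E2F-regulated genes.

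The mean raw signal over all probes was between 560 and 635 on 5 arrays and 845 on TDA1. Of 8 epithelial markers, 7 had a probe and 6 were bright enough to test. The means of these 6 lay between 12.04 and 12.54 (log2) on the TMA arrays and between 11.63 and 11.84 in the TDA samples. Limma called 0 of them, with 3 at an unadjusted p under 0.05, a level that 1728 of all 8963 tested genes reached. Markers of other cells were mostly too dim to test: 1 of 8 fibroblast, 2 of 6 leukocyte, 2 of 7 endothelial and 1 of 6 adipocyte genes with a probe could be tested, and limma called 0 of these, with 0 at an unadjusted p under 0.05. The T cell marker Cd3e and the pan-leukocyte marker Ptprc lay below the filter, whereas the leukocyte gene Cd14 had a mean of 13.73 in the TMA samples and 14.32 in the TDA samples. The arrays measure bulk RNA, in which fewer cells of a kind, such as fewer dividing cells, cannot be told apart from less RNA per cell.

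E2f1 was the member that fell. On the log2 scale of normalised intensity its probe read 9.05 on TMA1, 8.18 on TMA2 and 8.48 on TMA3, against 9.89 on TDA1, 9.95 on TDA2 and 9.97 on TDA3. The groups did not overlap, and the 3 TDA arrays lay close together while the TMA arrays were spread out. The means were 8.57 ± 0.44 and 9.94 ± 0.05 (SD, n = 3 each). The difference, TMA minus TDA, was -1.37 with a standard error of 0.24 and a 95% confidence interval from -1.88 to -0.85 (limma adjusted p = 0.0131), a signal 2.58-fold lower on the TMA arrays. Before any correction the same probe read 674, 409 and 529 intensity units in the TMA samples and 1552, 1002 and 889 in the TDA samples. E2f1 drives entry into S phase and, when in excess, also turns on apoptosis genes. The call was lost without TMA2, TMA3 or TDA1, at limma adjusted p = 0.0804, 0.0931 and 0.0788 and differences of -1.17, -1.32 and -1.39. Among all 12848 tested probes limma called 19, 3 and 8 in these settings, against 387 with all arrays.

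Of the 16 member probes, 11 probes of 8 genes exceeded the filter on dim probes, a mean log2 value above the median of all probes, and were tested. Of these 11 probes 1, that of E2f1, had an adjusted p under 0.05, and 0 rose. Among all 12848 tested probes limma called 3.01%, and 1.49% were called lower on the TMA arrays. Unadjusted p was under 0.05 for 2 of the 11 member probes, those of E2f1 and Rbl1, against 18.5% of all tested probes. Of the 11 probes 7 had a difference below 0 and 4 above it. With each gene taken at its brightest probe, the median difference over the 8 tested genes was -0.14, and over all 8963 tested genes it was 0.00. The groups did not overlap for 6 of the 11 probes, 3 lower and 3 higher on the TMA arrays, where 23% of all tested probes had groups apart. The E2f2 probe among the lower ones passed the filter only through its TDA values. With median scaling in place of quantile normalisation, 3 of the 11 were apart, against 15.7% of all tested probes.

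**Figure D1:**
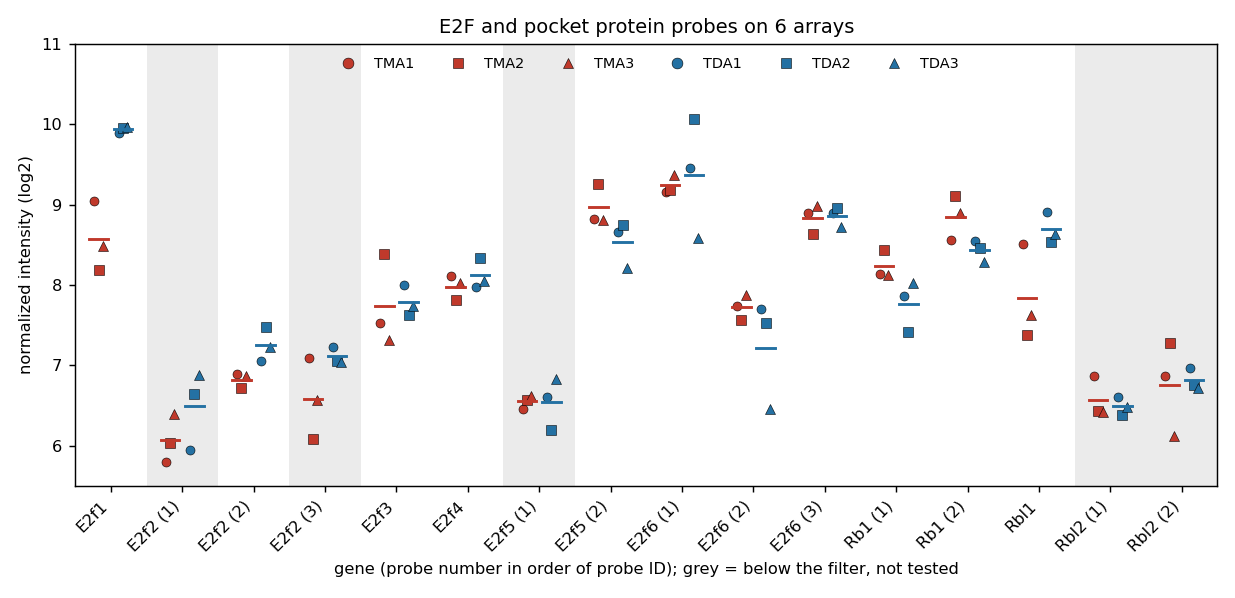
Normalised log2 intensity (y axis) of the 16 probes of the 9 measured genes on the 6 arrays, with TMA arrays in red, TDA arrays in blue, a symbol for each replicate number and a line at each group mean. E2f1 lies between 8.18 and 9.05 on the TMA arrays and between 9.89 and 9.97 in the TDA samples, and the 5 probes on grey ground were too dim to be tested.

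Among the other activators, E2f2 had 3 probes. The tested one, ILMN_2673776, read 6.89, 6.71 and 6.86 in the TMA samples and 7.05, 7.48 and 7.23 in the TDA samples. It was lower on every TMA array than on any TDA array, but the difference of -0.43 with a 95% interval from -0.87 to 0.01 did not pass (limma adjusted p = 0.28). This probe lay just above the filter, at the 51.2nd percentile of all probes. Its TMA mean of 6.82 was below the filter level of 7.02 and its TDA mean of 7.25 above it. It was therefore tested only through its TDA values, and its groups being apart is no support for a difference. The other E2f2 probes were below the filter, with means of 6.07 ± 0.30 on TMA and 6.49 ± 0.49 on TDA arrays for ILMN_1248842, and 6.58 ± 0.50 and 7.11 ± 0.11 for ILMN_2836137 (SD, n = 3 each), and for both the groups overlapped. E2f3, which like E2f1 promotes S phase entry, read 7.52, 8.39 and 7.32 in the TMA samples and 8.00, 7.62 and 7.74 in the TDA samples in that order. TMA2 held its highest value and TMA3 its lowest, and the difference was -0.04 with a 95% interval from -0.64 to 0.55 (limma adjusted p = 0.952).

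The repressor genes did not pass the test. E2f4, which occupies E2F promoters in resting cells, read 8.11, 7.81 and 8.02 in the TMA samples and 7.98, 8.34 and 8.05 in the TDA samples. These ranges overlapped, with a difference of -0.14 and a 95% interval from -0.58 to 0.30 (limma adjusted p = 0.787). E2f5, a related partner of p130, was tested through ILMN_2953596, at 8.82, 9.26 and 8.81 in the TMA samples and 8.66, 8.74 and 8.21 in the TDA samples. The TMA values were all above the TDA values, with TMA3 at 8.81 next to TDA2 at 8.74, and the difference was 0.43 with a 95% interval from -0.06 to 0.92 (limma adjusted p = 0.341). Its second probe, ILMN_2743953, was below the filter with means of 6.55 ± 0.09 and 6.54 ± 0.32 (SD, n = 3 each).

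E2f6, which represses through Polycomb proteins and lacks the pocket-binding region, had 3 tested probes. ILMN_2723931 read 9.16, 9.18 and 9.37 in the TMA samples and 9.46, 10.06 and 8.59 in the TDA samples, a difference of -0.14. ILMN_2734152 read 7.74, 7.56 and 7.87 in the TMA samples and 7.70, 7.52 and 6.46 in the TDA samples, a difference of 0.50. ILMN_2791963 stayed between 8.64 and 8.98 on all 6 arrays, a difference of -0.03. TDA3 was the lowest TDA array for each probe, the probes disagreed in the sign of the difference, and limma adjusted p lay between 0.405 and 0.961. The 95% intervals reached from -0.81 to 0.54, -0.14 to 1.14 and -0.46 to 0.41 in that order of probes. E2f7, the close relative of E2f8, was outside the chosen genes, and its single probe lay below the filter with means of 6.79 ± 0.27 on TMA and 6.96 ± 0.26 on TDA arrays (SD, n = 3 each).

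The pocket protein genes differed in direction among themselves, though none of them passed the test. Rbl1, whose product p107 restrains E2f4 in cycling cells, read 8.51 on TMA1, 7.37 on TMA2 and 7.63 on TMA3, against 8.91 on TDA1, 8.53 on TDA2 and 8.64 on TDA3. TMA1 lay just below TDA2, the lowest TDA array, while TMA2 and TMA3 lay well below. The means were 7.84 ± 0.59 and 8.69 ± 0.20 (SD, n = 3 each). The difference was -0.86 with a 95% interval from -1.46 to -0.25 (limma adjusted p = 0.116). Without TMA1 the difference was -1.19 and passed (limma adjusted p = 0.017), as it did with array quality weights, at -1.08 (limma adjusted p = 0.00438). In these settings 5.32% and 14.9% of all tested probes were called, against 3.01% as reported. Over all 15 alternatives the adjusted p of Rbl1 ranged from 0.00438 to 0.399. E2f1 had the same order among the TMA arrays, highest on TMA1 and lowest on TMA2.

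Rb1, the retinoblastoma gene itself, had 2 tested probes. ILMN_2679619 read 8.14, 8.44 and 8.12 in the TMA samples and 7.86, 7.41 and 8.02 in the TDA samples, and ILMN_2861644 read 8.56, 9.11 and 8.89 and then 8.55, 8.46 and 8.28. On both probes every TMA value exceeded every TDA value, although TMA1 and TDA1 were nearly equal on the second. Their differences were 0.47, with a 95% interval from -0.01 to 0.95, and 0.42, with one from -0.04 to 0.88, and neither passed (limma adjusted p = 0.286 and 0.32). TMA2, the array with the least E2f1 and Rbl1, held the highest Rb1 value on both probes. Rbl2, whose product p130 is the main pocket protein of resting cells, was too dim to be tested on both of its probes. Its means were 6.57 ± 0.26 on TMA and 6.49 ± 0.12 on TDA arrays for ILMN_2774662, and 6.75 ± 0.59 and 6.81 ± 0.14 for ILMN_3009354 (SD, n = 3 each).

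**Figure D2:**
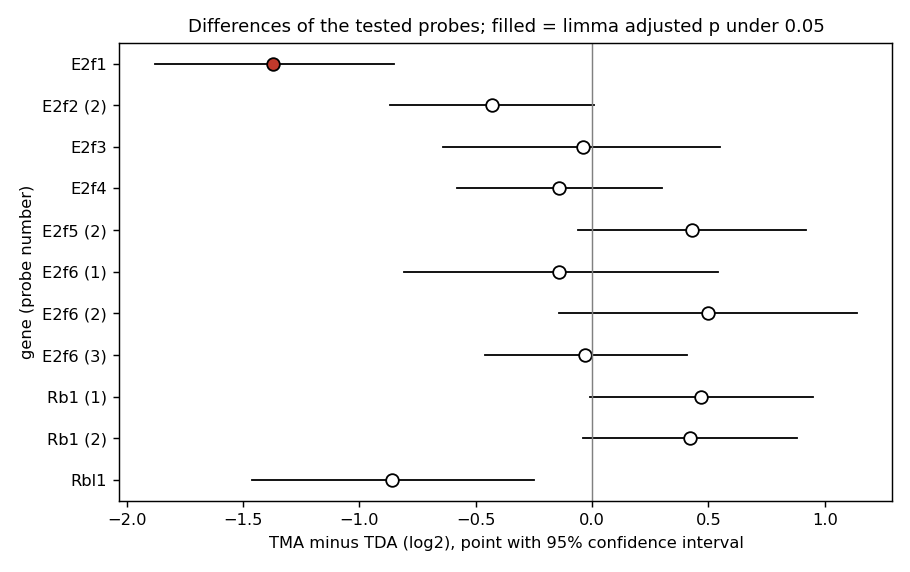
Difference in log2 intensity, TMA minus TDA, of the 11 tested probes (x axis) with 95% confidence intervals from limma's moderated standard errors. The filled point, E2f1 at -1.37, passed the adjusted threshold, the Rbl1 interval ends at -0.25, and the intervals of both Rb1 probes reach just below 0.

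Promoter stretches are shown for the members whose RefSeq windows, 250 bases before to 50 after an annotated start in GRCm38.p6, hold an E2F-type sequence, because family members are known to regulate each other through such sites. Both strands were searched for TTTCCCGC, TTTGGCGC, TTTCGCGC and TTTGCCGC. Windows were matched for 7 of the 10 genes, 9 windows in all, and 3 of them held 1 match each, those of Rbl1, E2f2 and E2f3. Of all 32851 windows 2.26% held at least 1 match. The capitals mark the match, and each line is read 5′ to 3′ on the strand of the gene. The first 2 lines give the 100 bases before the start, for Rbl1 at chr2:157204535-157204634 on the minus strand and for E2f3 at chr13:29986064-29986163 on the minus strand. The third gives 30 bases after the start of E2f2, chr4:136172294-136172323 on the plus strand.
Rbl1: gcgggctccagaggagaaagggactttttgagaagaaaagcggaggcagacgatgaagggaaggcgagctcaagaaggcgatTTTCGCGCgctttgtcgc
E2f3: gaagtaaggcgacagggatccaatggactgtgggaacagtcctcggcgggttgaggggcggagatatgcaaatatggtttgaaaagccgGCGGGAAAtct
E2f2: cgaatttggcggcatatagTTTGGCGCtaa

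The match in Rbl1 begins 18 bases before the start, that in E2f3 11 bases before it on the opposite strand, and that in E2f2 at base 40 after the start. Of these genes, Rbl1 and the tested E2f2 probe had lower values on all TMA arrays than on any TDA array, without passing the test, while the dimmer E2f2 probes and E2f3 had overlapping groups. The tested E2f2 probe passed the filter only through its TDA values. The E2f1 window was set on a start that lies 466 bases inside the annotated gene, and it held no match, which says only that these letters are not in that window. A match is a description of the letters and not evidence of binding.

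Genes that work with the family were described from lists of partners, regulators and targets. The count to set beside each list's number at unadjusted p under 0.05 is that over all tested genes, 1728 of 8963. Both dimer partners were tested, 0 were called and 1 had an unadjusted p under 0.05. Tfdp1, which encodes the DP1 subunit, read 8.84, 8.47 and 8.85 in the TMA samples and 9.59, 9.43 and 9.53 in the TDA samples, with groups well apart and a difference of -0.79 (standard error 0.20, limma adjusted p = 0.0555), just short of the threshold. It passed without TDA2 (-0.84, limma adjusted p = 0.0431) and with array quality weights (-0.81, limma adjusted p = 0.00626). In these settings 5.11% and 14.9% of all tested probes were called, against 3.01% as reported. Over all 15 alternatives the adjusted p of Tfdp1 ranged from 0.00626 to 0.246. Tfdp2 differed by -0.35 (limma adjusted p = 0.408).

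Of 6 tested G1 cyclins, kinases and activating phosphatases, which release E2F from pocket proteins, 0 were called, with 2 at unadjusted p under 0.05 and a median of -0.51. Ccne2, encoding cyclin E2 and itself an E2F target, and the phosphatase gene Cdc25a differed by -0.58 and -0.51 (limma adjusted p = 0.118 and 0.182). Of 6 tested CDK inhibitors, which keep pocket proteins active, 0 were called and 0 had an unadjusted p under 0.05 at the brightest probe, with a median of 0.05. Cdkn1a, encoding p21, differed by 0.67 with a 95% interval from -0.02 to 1.36 (limma adjusted p = 0.289). Its other tested probes differed by 0.64 and 0.87 (limma adjusted p = 0.228 and 0.167), and Cdkn2c, encoding p18, differed by -0.29 (limma adjusted p = 0.56).

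The MuvB complex joins p107 or p130 with E2f4 as a repressor, and joins B-Myb and FoxM1 as an activator of mitotic genes. Of 4 tested genes of this group 0 were called and 3 had an unadjusted p under 0.05, with a median of -0.64. Of all 8963 tested genes 1728 had such a p. Foxm1 read 8.02, 7.78 and 7.65 in the TMA samples and 8.81, 8.42 and 8.71 in the TDA samples, a difference of -0.83 that missed the threshold narrowly (limma adjusted p = 0.0532). It passed without TMA1 (-0.93, limma adjusted p = 0.0414), without TDA2 (-0.94, limma adjusted p = 0.0222) and with array quality weights (-0.99, limma adjusted p = 0.00189). In these settings 5.32%, 5.11% and 14.9% of all tested probes were called, against 3.01% as reported. Over all 15 alternatives the adjusted p of Foxm1 ranged from 0.00189 to 0.25. Its other tested probe differed by -0.84 with overlapping groups (limma adjusted p = 0.123). The DNA-binding subunit gene Lin54 and the B-Myb gene Mybl2 differed by -0.73 and -0.54 (limma adjusted p = 0.116 and 0.172). Of 4 tested corepressors of pocket proteins 0 were called and 0 had an unadjusted p under 0.05, with a median of -0.07, Dnmt1 at -0.46 and Sin3a at 0.23. Of 4 tested partners of E2f6 in its Polycomb complex 0 were called and 0 had an unadjusted p under 0.05, with a median of -0.04, Ring1 at 0.34 and Rnf2 at -0.32.

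Target genes of the family were lower on the TMA arrays in larger numbers. Of 26 listed E2F targets of the G1/S transition, 23 had a probe and 16 were tested, of which 12 fell, 0 rose and 4 did not pass, with a median difference of -1.37. All tested genes together held 3.43% called. The helicase subunit gene Mcm5, the chromatin regulator gene Uhrf1 and the ribonucleotide reductase gene Rrm2 fell, with log2 differences of -2.41, -2.19 and -1.96 (limma adjusted p = 0.00984, 0.0194 and 0.0194). Each gene was counted at its brightest probe. Other tested probes of the called genes Mcm4 and Tyms had overlapping groups, at -0.16 and -0.12 (limma adjusted p = 0.769 and 0.851). A further Tyms probe and the other tested probes of Mcm6 and Rrm2 fell, at -1.30, -1.54 and -2.13 (limma adjusted p = 0.0107, 0.0426 and 0.0098). The Rrm2 probe at -2.13 had a TMA mean of 6.74, below the filter level, and was tested only through its TDA values. Of 15 listed G2/M genes, targets of MuvB with B-Myb and FoxM1, 9 were tested, 8 fell and 0 rose, with a median of -1.68. Birc5, Nusap1 and Cdk1, which encode survivin, a spindle protein and the mitotic kinase, fell, with differences of -2.03, -1.86 and -1.79 (limma adjusted p = 0.0147, 0.0393 and 0.0232). Earlier results of these data had shown replication and mitosis genes lower, so these counts are no independent support.

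The 16 G1/S targets averaged 9.05, 8.12 and 8.35 in the TMA samples and 10.19, 9.65 and 9.93 in the TDA samples, the same order among the TMA arrays as E2f1. Cdc6, tested only through its TDA values, is among these 16 genes and enters their averages and counts. The 9 G2/M genes averaged 9.21, 8.54 and 8.28 and then 10.53, 9.54 and 10.64, so that TDA2 was lower than the other TDA arrays, while E2f1 was level across the 3 TDA arrays. These target counts also changed with 1 array left out. Limma called 0 of either list without TMA2, TMA3 or TDA1, with 15 and 9 genes at unadjusted p under 0.05 each time. Without TDA3 it called 4 and 0. Among all 12848 tested probes it called 19, 3, 8 and 125 without these arrays in turn, against 387 with all of them. Unadjusted p was under 0.05 for 1645, 1674 and 1878 of these probes without TMA2, TMA3 and TDA1, against 2380 with all arrays. In the authors' deposited log2 values the G1/S and G2/M counts were 4 and 0, with 15 and 9 genes at unadjusted p under 0.05. Of all 12848 tested probes 135 were called in these values and 2372 had such an unadjusted p.

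**Figure D3:**
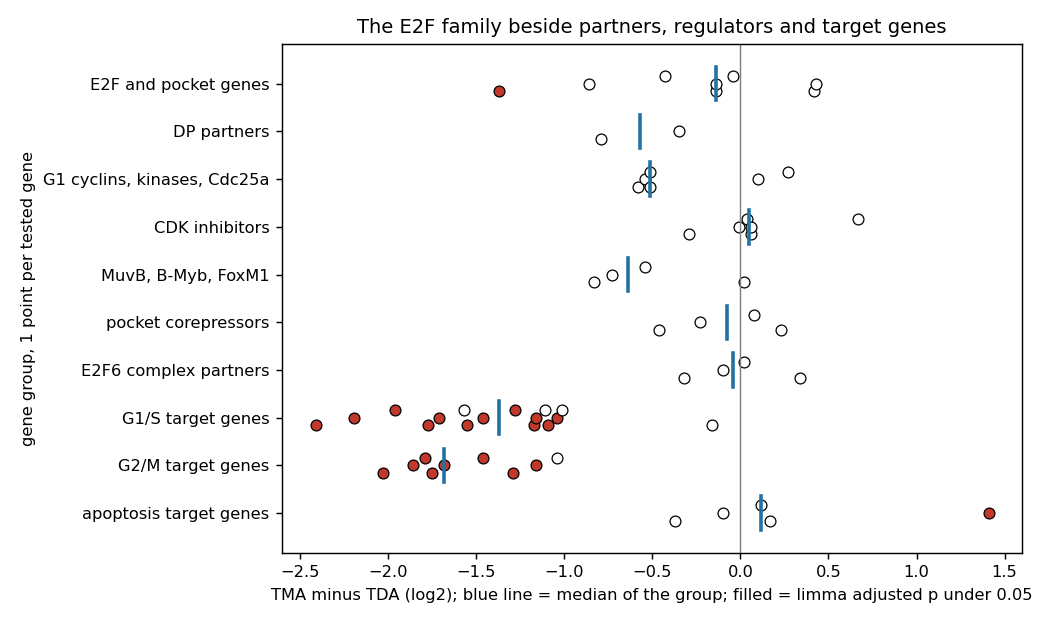
Difference in log2 intensity, TMA minus TDA (x axis), of each tested gene at its brightest probe, by gene group, with a blue line at the group median and filled points for limma adjusted p under 0.05. The G1/S and G2/M targets lie at medians of -1.37 and -1.68, while the E2F and pocket genes lie around -0.14 with E2f1 alone filled.

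The genes whose pattern over the 6 arrays was most like that of E2f1 were Nubp1, encoding an iron-sulphur cluster assembly protein (Pearson r = 0.9991), Smim15 (r = 0.9954) and the helicase subunit gene Mcm6 (r = 0.9936). Nubp1 read 10.28, 9.55 and 9.80 in the TMA samples and 11.05, 11.17 and 11.12 in the TDA samples. Nubp1 and Mcm6 fell, with differences of -1.23 and -1.71 (limma adjusted p = 0.0169 and 0.0131), and Smim15 differed by -0.58 (limma adjusted p = 0.137). Both calls were lost without TMA2, TMA3 or TDA1, and that of Nubp1 also without TDA3, with limma adjusted p up to 0.11. Nubp1 and Mcm6 also missed the threshold in the unmoderated test (adjusted p = 0.246 and 0.258), where 0 of all tested probes were called. The 6 points fall into the 2 groups, and 444 of 11947 other named probes also had r above 0.9. For the E2f6 probe ILMN_2734152, the member probe with the highest difference, the nearest were Abce1, Spire1 and 3110082I17Rik, with r of 0.9941, 0.9833 and 0.9827, and all of these had their lowest value on TDA3.

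Across 15 alternative treatments of the data, 11 kept the E2f1 call and the difference stayed between -1.61 and -1.07. In every alternative that tested them, Rbl1 lay between -1.19 and -0.54, the Rb1 probes between 0.28 and 0.60 and between 0.29 and 0.57, and E2f5 between 0.27 and 0.53, each without a change of sign.

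**Figure D4:**
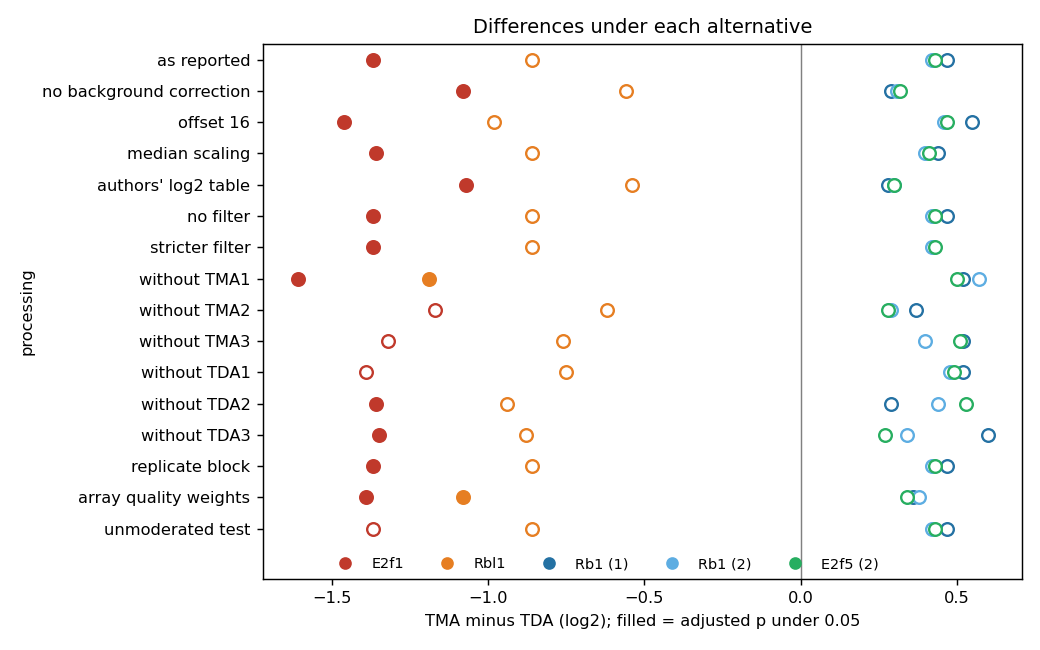
Difference in log2 intensity, TMA minus TDA (x axis), of E2f1, Rbl1, both Rb1 probes and the tested E2f5 probe under the reported processing and each alternative (y axis), with filled points for adjusted p under 0.05. E2f1 stays between -1.61 and -1.07 and is unfilled without TMA2, TMA3 or TDA1 and in the unmoderated test, while Rb1 and E2f5 stay above 0 and unfilled.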

How the data were processed

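Trizol RNA was labelled by a standard Illumina protocol, per the labels. One deposited table gives raw probe intensity without detection values. Its smallest entries lie well above 0, and it was treated as not background subtracted. The authors' deposited log2 values, whose normalization method no source used here names, were an alternative.

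With limma 3.58.1 in R 4.3.3, intensities were background corrected by normexp with an offset of 50, which shrinks differences of dim probes, then quantile normalized and put on the log2 scale. In the annotation 23846 probes had 1 symbol, 1851 had none and 0 had several. Only probes averaging above 7.02, the median of all probes, were fitted (lmFit, eBayes). Two-sided p-values of these 12848 probes were adjusted after Benjamini and Hochberg, with calls at 0.05. Residual degrees of freedom were 4, prior ones 8.22, and standard errors had a median of 0.223. Precision is limited by having 3 arrays per group. TMA took the first and TDA the last positions of 1 chip, so position and group cannot be told apart.

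Every member probe was named. From each gene list up to 3 called genes with the largest differences were named, or, with none called, the 2 of lowest p, and the 3 genes with the highest r to the lowest and the highest member. Outside this rule, Mybl2, Cd14, Cd3e, Ptprc, E2f7, the other Bcl2l11 and Cdkn1a probes and the remaining apoptosis genes were named after their values were seen. Members and lists were chosen with earlier results of these data known. The limma fit and the adjustment were tested on simulated log2 values with independent errors. Background correction, normalization and the filter were not part of that test. Promoter windows came from RefSeq tables. Plots used matplotlib 3.10.9 (Python 3.11.15).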

Additional observations from a re-analysis of the deposited data

How the results depend on the processing

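Over all tested probes limma called 387, against 129 with median scaling, 200 without background correction, 135 in the authors' log2 values, 232 with the stricter filter, 1912 with array quality weights, 0 in the unmoderated test (1794 at unadjusted p under 0.05) and 3 to 683 with 1 array left out. Member probes called were 1, against 2 with array weights, 0 unmoderated (2 at unadjusted p under 0.05) and 0 to 2 with 1 array left out. Without TMA2, TMA3 or TDA1 the 0 came with 1, 2 and 4 of the 11 member probes at unadjusted p under 0.05. In the same settings 1645, 1674 and 1878 of all 12848 tested probes had such a p. Called G1/S targets numbered 12, while 5 were counted with median scaling and 5 without background correction, 4 in the authors' values, 0 unmoderated (13 at unadjusted p under 0.05) and 0 to 15 with 1 array left out. Of the G2/M genes 8 were called, against 4, 0 and 0 in the first 3 of these settings (9 at unadjusted p under 0.05 in each), 5 with the stricter filter, 0 unmoderated (7 at unadjusted p under 0.05) and 0 to 9 with 1 array left out. Over all 12848 tested probes 1672 had such a p with median scaling, 2378 without background correction and 2372 in the authors' values. Cdc6, tested only through its TDA values, was among the tested G1/S genes. The member median of -0.14 ranged from -0.31, without TDA3, to -0.08 with 1 array left out. The count of 6 member probes with groups apart, a measure added after seeing the data, was 3 with median scaling and 6 to 8 with 1 array left out. It was 5 in the authors' values and 4 of 7 tested with the stricter filter. Of all tested probes 23% were apart as reported and 15.7% with median scaling. That share was 22.9% in the authors' values, 28.5% with the stricter filter and 29.9% to 38.1% with 1 array left out. E2f1 missed the threshold in the unmoderated test (adjusted p = 0.248), and its adjusted p over all alternatives ranged from 0.000345 to 0.248. The sign turned for E2f3 without TMA1 (0.07), TMA3 (0.17) or TDA1 (0.06), for E2f6 ILMN_2791963 without TMA2 (0.07) or TDA2 (0.02), and for E2f6 ILMN_2723931 without TDA2 (0.21). With 1 array left out these probes ranged down to -0.37, -0.10 and -0.53 in this order. Called genes named from the lists kept their sign throughout, but without background correction and in the authors' values Uhrf1, Rrm2, Birc5, Nusap1, Cdk1 and Bcl2l11 missed the threshold, as did Nusap1 with median scaling or the stricter filter and all of them and Mcm5 unmoderated. Of 161 member differences 149 kept their sign and side of the threshold. The cause of these changes was not tested. Deviations of same-numbered arrays from their group means correlated at 0.13, 0.01 and 0.03. TMA1 and TMA3 correlated best with the same-numbered TDA array, and TMA2 with TDA3 (0.06). With so few arrays these values cannot settle whether replicate numbers pair the arrays. With the replicate block 524 probes and the 1 member probe were called. Dim probes, Rbl2 among them, limit what could be tested.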

Other observations

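Among apoptosis genes that E2f1 is known to induce, 1 of the 5 tested passed the test, where 3.43% of all tested genes were called. Of 8 listed genes 6 had a probe and 5 were tested, of which Bcl2l11, encoding the cell death activator BIM, rose and 0 fell, with a median difference of 0.12. Bcl2l11 read 9.95, 11.02 and 10.54 in TMA samples 1 to 3 and 8.83, 9.32 and 9.13 in TDA samples 1 to 3, with every TMA array above every TDA array. Its difference was 1.41 ± 0.27 (standard error; limma adjusted p = 0.021). The call was lost without TMA2, TMA3, TDA1 or TDA3 (limma adjusted p = 0.104, 0.122, 0.12 and 0.0589), with differences from 1.15 to 1.42. Of its 3 other tested probes, 1 passed, at 0.91 (limma adjusted p = 0.0465), and the others differed by 0.72 and 0.29 (limma adjusted p = 0.176 and 0.484). The probe at 0.72 had a mean of 7.47 in the TMA samples and 6.75 in the TDA samples, the latter below the filter level. It was therefore tested only through its TMA values, and its difference is no support for a rise. Apaf1, which forms the apoptosome, differed by 0.17, the initiator caspase gene Casp8 by -0.37, the BH3-only genes Bbc3 and Pmaip1 by 0.12 and -0.10, with limma adjusted p between 0.551 and 0.901.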
